A study of Mus musculus with 5 samples.

Results

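Of the 8038 regions listed for Pou4f1 in the embryonic mouse retina, 562 (6.99%) were bidirectional coding promoters. A region was counted here when its midpoint lay within 1 kb of the transcript starts of 2 different protein-coding genes on opposite strands, with the starts at most 1 kb apart and the genes pointing away from each other (head to head). Starts were taken from the GENCODE M21 annotation of mm10, and no signal value entered the choice. The 562 regions lay at 560 distinct closest gene pairs. In 20 of them the starts of 2 gene pairs were in reach, and 8 were on chromosome X. The class used for comparison holds the 4278 regions near starts of 1 coding gene, of which 512 had a noncoding gene head to head with the coding one. A further 2881 regions had no annotated start within 1 kb.

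The regions come from CUT&Tag, in which an antibody guides a protein A-Tn5 transposase fusion to chromatin so that DNA near the bound protein is tagged and sequenced. Cells of wild-type retinas at E16.5, pooled and carrying no transgene or deletion in any library, were incubated with a rabbit anti-Pou4f1 antibody (n = 2 libraries) or with rabbit IgG (n = 2), and a single anti-H3K9AC library was not analysed here. The retina at this stage holds ganglion cells, other neurons and dividing progenitors, and the signal of a pooled tissue does not tell which cells carry it. One IgG column is named IgG and the other negative control, the latter being taken as IgG because rabbit IgG was the only negative control of the study.

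Pou4f1 is a POU-domain transcription factor of retinal ganglion cells, the neurons that send their axons from the eye to the brain. Coding genes placed head to head share the stretch between their starts, from which RNA polymerase II leaves in both directions. Such pairs are known to be common in mammalian genomes, to lie in CpG islands and to hold many genes used by every cell, among them genes of DNA repair, mitochondria and protein folding.

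The shared stretches of 3 pairs are shown as examples. Only stretches with at least 1 searched motif could be chosen, so their matches do not show how common a motif is. They were chosen among the pairs named by the rules given with the methods, as a mitochondrial translation pair and the pairs whose regions ranked among the highest in Pou4f1 signal. Each is the plus strand of GRCm38 (mm10) from 5′ to 3′. It runs from the base after the start of the minus-strand gene to the base before that of the plus-strand gene. No annotated exon lies in it. Capitals mark matches to the motifs searched, here GGGGCGGG of SP and KLF factors, CCAATNAG of NFY and CCGGAAGT of ETS factors, on either strand. The Mrps12/Sars2 stretch is chr7:28741821-28741991, that of Lrrc42/Hspb11 is chr4:107253533-107253592 and that of Fam219a/Dnaic1 is chr4:41569539-41569774.
Mrps12/Sars2: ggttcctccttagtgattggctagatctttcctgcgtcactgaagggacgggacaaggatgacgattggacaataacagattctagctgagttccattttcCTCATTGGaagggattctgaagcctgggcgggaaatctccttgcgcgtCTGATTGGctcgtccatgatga
Lrrc42/Hspb11: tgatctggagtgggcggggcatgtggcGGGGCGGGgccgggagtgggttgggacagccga
Fam219a/Dnaic1: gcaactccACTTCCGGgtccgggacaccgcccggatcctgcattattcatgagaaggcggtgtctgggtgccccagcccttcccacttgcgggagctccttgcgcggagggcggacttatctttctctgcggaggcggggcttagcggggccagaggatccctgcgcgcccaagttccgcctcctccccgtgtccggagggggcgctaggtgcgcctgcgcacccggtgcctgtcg

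The first stretch holds 2 matches to CCAATNAG, the second 1 to GGGGCGGG and the third 1 to CCGGAAGT. Shorter cores of these sites, such as CCAAT, that do not match the whole motif are left in lower case. None of the 3 holds a full match to the POU4 consensus, an AT-rich motif that takes either A or T at 1 position and any base at another, and partial matches were not counted.

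The values are a signal per region, not read counts. Signal times region length came in whole steps of a size proper to each library (tolerance 0.05 steps) for 99.98% of values or more, with a step of 61.2 in Pou4f1 replicate 2, of 76.2 in the column IgG and of 88.9 in the column negative control, and the smallest step in Pou4f1 replicate 1. The step limits the precision. For the read number of a library and the scaling of the signal the sources used here give nothing.

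At the head-to-head promoters Pou4f1 signal lay far above IgG in nearly every region. Replicate 1 had a median of 207 (quartiles 148 and 292) and replicate 2 one of 143 (101 and 204), while the IgG columns had 6.63 (column IgG) and 12.1 (column negative control). No region was at 0 in a Pou4f1 library, while 233 (41.5%) were at 0 in column IgG and 179 (31.9%) in column negative control. Pou4f1 exceeded IgG in every pairing of libraries in 558 of the 562 (99.3%), where 96.5% of all regions of the table had that order. The authors had called the regions on Pou4f1 signal with rabbit IgG as the control, so the order is in part given by that choice. The same holds for the limma test of Pou4f1 against IgG and its adjusted p-values below, which are not independent of the calls.

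The test was that of limma, Pou4f1 against IgG on log2(signal + 1), over all 8038 regions, 2 libraries against 2, and an adjusted p (Benjamini-Hochberg) under 0.05 was taken as the threshold. Differences on this scale understate the change of regions with low signal. Of the 562 head-to-head promoters 356 were higher in Pou4f1 (63.3%), beside 64.8% of all regions and 61.9% of the promoters of 1 coding gene. None was lower, beside 0.224% of all regions, and none had a log2 difference below 0 (the lowest was 0.51), so that none was lower at an unadjusted p either. The median log2 difference was 4.89 at head-to-head promoters, 4.91 at promoters of 1 coding gene and 5.22 over all regions.

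Whether a head-to-head promoter passed went with its IgG values. All 84 regions at 0 in both IgG libraries passed, beside 99.7% of all regions of that kind. Of the 234 with signal in both 198 passed (84.6%, beside 74.1%). Of the 244 at 0 in only 1 of them 74 passed (30.3%, beside 39.4%), and their IgG pair is far apart on the log scale. At these promoters the IgG libraries had a Pearson correlation of 0.0267 across regions, and the Pou4f1 replicates of 0.846 (Spearman 0.799, n = 562 regions, which share their libraries). The sign of the difference depends on the scaling of the libraries, which is not known. With column totals as library sizes, the median log2 difference over all regions shifted by -2.50. Then 170 of the 562 head-to-head promoters lay below IgG, 1 of them past the threshold, and 85 were higher. These totals cover only the listed regions, which were called on Pou4f1 signal, and are not depths. Scaling by them removes the mean excess of Pou4f1 over IgG, so regions with a smaller excess tend to turn negative by construction. Such a change of sign cannot tell whether IgG exceeded Pou4f1 at a region. With IgG taken as 4 times shallower 9 lay below IgG and 107 were higher. The count higher was 133 without Pou4f1 replicate 1 and 144 without replicate 2. It was 540 without the library named IgG and 559 without that named negative control.

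Pairs known from textbooks as bidirectional were looked up by name. Of 24 such pairs 19 are annotated head to head, and 14 of these held a region, of which 10 were higher in Pou4f1 by limma, where 64.8% of all regions were. With 1 library left out, whichever it was, the log2 difference stayed positive in all 14. The lowest was 1.78, at Clcn2/Polr2h without the library named IgG. Over all regions the median difference in these fits ran from 4.61 to 5.42. How many of the 14 passed changed with the library left out, as it did over all regions. With column totals as library sizes 2 of the 14 were higher, beside 22.7% of all regions. The groups overlapped in none of the 14, all with Pou4f1 on top, an order shared by 96.5% of the table's regions.

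Atm/Npat had 294 and 190 with anti-Pou4f1, but 5.53 and 1.19 with IgG (log2 difference 5.97 with SE 0.77, limma adjusted p = 0.0110). Atm is the kinase that signals DNA breaks, and Npat is a coactivator of histone genes. Mcm4/Prkdc pairs a subunit of the replicative helicase with the catalytic subunit of the DNA-dependent protein kinase. It reached 214 and 182 with anti-Pou4f1, but 11.4 and 30.9 with IgG (log2 difference 3.32 with SE 0.66, limma adjusted p = 0.0283). Brca1/Nbr1, with a gene of recombination repair on 1 side, reached 239 and 109 with anti-Pou4f1, but 0 and 36.5 with IgG. It did not pass, with a limma adjusted p of 0.118, and its region covers the start of Nbr1 but not that of Brca1.

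Hspd1/Hspe1, which encode the mitochondrial chaperonin and its co-chaperonin, reached 211 and 182 with anti-Pou4f1, but 7.35 and 25.2 with IgG (limma adjusted p = 0.0290). Ppat/Paics, both of purine synthesis, reached 363 and 268 with anti-Pou4f1, but 23.5 and 41.3 with IgG (limma adjusted p = 0.0173). Gart/Son, with another purine enzyme, reached 251 and 99.6 versus 8.48 and 0 (limma adjusted p = 0.0426, but 0.121 with a pseudocount of 0.1). Each of these 3 pairs was higher in both Pou4f1 libraries than in either IgG library, although replicate 2 of Gart/Son stood well below replicate 1. For Hspd1/Hspe1 and Ppat/Paics, as for Mcm4/Prkdc, the log2 difference changed sign with column totals as library sizes, to -0.20, -0.72 and -0.65.

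Mrps12/Sars2 joins a protein of the mitochondrial ribosome to the mitochondrial seryl-tRNA synthetase. It had 248 and 143 in Pou4f1, 15.4 in column IgG and 0 in column negative control, and did not pass (limma adjusted p = 0.0571). Clcn2/Polr2h and Mcm7/Ap4m1 were also at 0 in 1 IgG library and did not pass, with adjusted p-values of 0.129 and 0.0955. Ranbp1/Trmt2a, with 121 and 61.2 in Pou4f1, and Atp5c1/Kin, with 141 and 127, were listed at 0 in both IgG libraries and passed (adjusted p = 0.00412 and 0.00222).

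Col4a1/Col4a2 had the lowest mean signal of the 14 apart from Ranbp1/Trmt2a, at 98.5 and 93.8 in Pou4f1 with 13.2 and 14.9 in IgG. The pair encodes the collagen IV chains of basement membranes, which the vessels of the retina deposit. Its libraries agree closely within each antibody, and the log2 difference was 2.69 (SE 0.38, limma adjusted p = 0.0138), turning to -1.25 with column totals as library sizes. The region is among the longest named here, 3072 bp on chromosome 8.

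Among head-to-head promoters with IgG signal in at least 1 library, Tmtc3/Cep290 had the largest log2 difference past the threshold, 7.90 (SE 1.10, limma adjusted p = 0.0134). It reached 706 and 478 with anti-Pou4f1, 4.95 in column IgG and 0 in column negative control. Cep290 encodes a protein of the ciliary transition zone, and its loss is a known cause of retinal dystrophy. Lrrc42/Hspb11 followed at 7.87 (SE 1.59, limma adjusted p = 0.0291), with 1008 and 814 in Pou4f1 and 14.1 and 0 in IgG. Hspb11 encodes the intraflagellar transport protein Ift25. Its region is only 320 bp long, on chromosome 4 from 107253535 to 107253854.

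Fam219a/Dnaic1, with a dynein chain of motile cilia on 1 side, reached 858 and 708 with anti-Pou4f1, but 0 and 17.2 with IgG (log2 difference 7.52 with SE 1.69, limma adjusted p = 0.0355). Ofd1/Trappc2 on chromosome X, Ofd1 being a centriole protein needed for cilia, reached 393 and 400 with anti-Pou4f1, but 7.81 and 0 with IgG (log2 difference 7.07 with SE 1.29, limma adjusted p = 0.0239). The replicates of Ofd1/Trappc2 were nearly level, and in both pairs the groups were far apart. The others of the 10 largest were Emc6/Tax1bp3, Prr11/Ska2, Pdcd10/Serpini1, Cdca2/Kctd9, Asb7/Lins1 and Gen1/Smc6, with log2 differences of 7.12 to 7.36. Gen1 is a nuclease that resolves recombining DNA, and Smc6 a subunit of the complex that acts beside it in repair. That pair had 251 and 183 in Pou4f1 with 0 and 1.38 in IgG (limma adjusted p = 0.00504). All 10 were at 0 in 1 IgG library, and 9 of them, all but Gen1/Smc6, passed in 5 of 10 alternative fits. These 9 did not pass with a pseudocount of 0.1, with either other scaling or with 1 Pou4f1 replicate left out. The order also depends on the pseudocount, since with 10 the difference was 5.88 at Lrrc42/Hspb11 and 5.60 at Tmtc3/Cep290.

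The highest mean signal of all head-to-head promoters was at Pdcd10/Serpini1, with 1071 and 811 in the Pou4f1 replicates. It was at 0 in column IgG, with 31.9 in column negative control, and its difference passed narrowly (log2 difference 7.35 with SE 2.03, limma adjusted p = 0.0497). Serpini1 encodes neuroserpin, a protease inhibitor of neurons, and Pdcd10 a protein of vascular integrity. The starts of this pair are 691 bp apart.

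Histone genes stood out among the highest. Canonical histone genes are intronless, clustered and expressed in S phase, and H2A and H2B genes often share a promoter. All 8 head-to-head regions at core histone genes lay in the cluster on chromosome 13, and 7 were higher in Pou4f1, where 64.8% of all regions were. Their medians were 520 (replicate 1) and 765 (replicate 2), above the third quartile of all head-to-head promoters in each replicate. Histone genes are near-identical copies, and reads could have been split or misplaced among them, so the value of each single pair is uncertain.

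Hist1h2ae/Hist1h2bg had 670 and 935 with anti-Pou4f1, but 50.2 and 19.7 with IgG (log2 difference 4.61 with SE 0.66, limma adjusted p = 0.0144). Hist1h2ag/Hist1h2bj reached 653 and 823 versus 7.95 and 35.6 (log2 difference 5.34 with SE 0.89, limma adjusted p = 0.0198). In both pairs replicate 2 was the highest library. The exception among the 8 was Hist1h2ak/Hist1h2bn, where the region is 182 bp long and does not reach the starts, which lie over 500 bp from its end. It had 27.7 and 43.3 in Pou4f1, 0 in column IgG and 74.2 in column negative control, so that the groups overlapped (limma adjusted p = 0.475).

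The stretches between the starts of the strongest histone pairs are shown for their motifs, as plus strand of mm10 from chr13:23571221-23571395 and chr13:22042945-22043213. Capitals mark CCAATNAG of NFY, the octamer ATGCAAAT that POU factors of the Oct family bind, the TATA box TATAAA and the cyclic AMP response element TGACGTCA.
Hist1h2ae/Hist1h2bg: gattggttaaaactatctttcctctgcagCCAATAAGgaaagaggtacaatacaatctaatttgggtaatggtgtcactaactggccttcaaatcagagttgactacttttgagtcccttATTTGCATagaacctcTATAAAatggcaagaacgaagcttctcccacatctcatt
Hist1h2ag/Hist1h2bj: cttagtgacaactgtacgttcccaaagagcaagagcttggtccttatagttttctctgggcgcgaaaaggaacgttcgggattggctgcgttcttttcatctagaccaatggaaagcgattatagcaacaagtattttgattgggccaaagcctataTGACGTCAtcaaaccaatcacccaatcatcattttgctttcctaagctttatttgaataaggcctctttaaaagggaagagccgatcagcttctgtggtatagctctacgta

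The first holds an NFY match, the octamer on the minus strand and a TATA box, and the second the cyclic AMP response element. Histone H2B promoters are known for the octamer.

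Most other head-to-head promoters had more signal in replicate 1. Replicate 1 was the higher one in 485 of 562 (86.3%), and by over 2-fold in 96 (17.1%), while replicate 2 was over 2-fold higher in 0. The median log2 ratio of replicate 2 to replicate 1 was -0.55, beside -0.51 at promoters of 1 coding gene and 0.22 at regions with no start within 1 kb. At histone pairs it was 0.43, with replicate 2 higher in 7 of 8. The 18 regions of single histone genes had the same order, with medians of 279 in replicate 1 and 428 in replicate 2. With 1 library per replicate, no test applies to these differences, and they were not tested against sequencing depth. The plot of replicate 1 against replicate 2 shows the histone pairs on the far side of the diagonal.

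**Figure D1:**
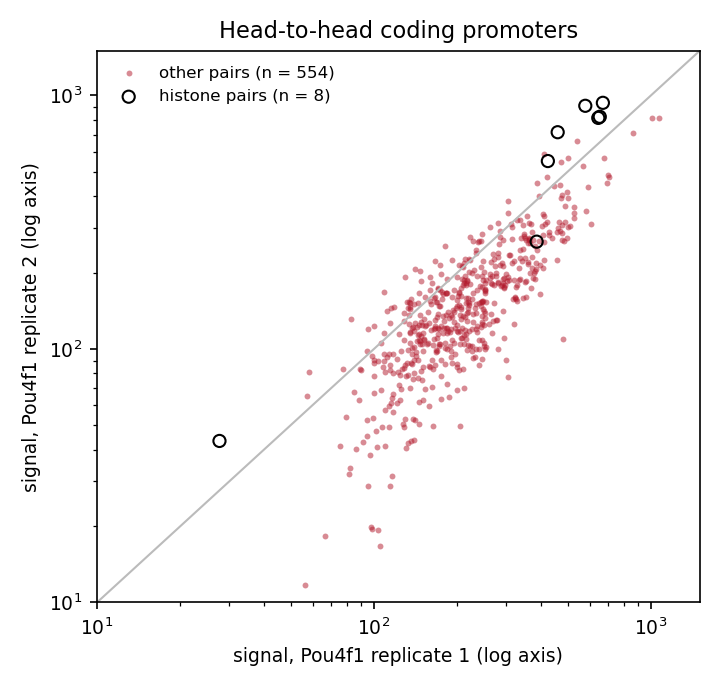
Signal of the 562 head-to-head promoters in Pou4f1 replicate 1 (horizontal, log axis) and replicate 2 (vertical, log axis), 1 point per region, with the grey line marking equal signal. Most points lie below the line, and 7 of the 8 histone pairs (open circles) lie above it.

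The furthest departures with replicate 1 the higher were at signals below the lower quartile of both replicates. Tmed7/Eif1a had 105 in replicate 1 and 16.7 in replicate 2, Abhd14a/Abhd14b had 103 and 19.3, and Uqcr10/Zmat5 had 98.6 and 19.6. In all 3 replicate 2 lay close to an IgG library, and none passed (limma adjusted p of 0.182, 0.143 and 0.134). In the other direction, Zdhhc6/Vti1a had 82.7 in replicate 1 and 131 in replicate 2 with 0 and 12.1 in IgG (limma adjusted p = 0.0620), and Hist1h2bf/Hist1h2ad had 579 and 910 with 12.8 and 68.4 (limma adjusted p = 0.0354).

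At 4 head-to-head promoters the Pou4f1 and IgG libraries overlapped. Nr2e1/Ostm1 had 56.2 and 11.7 in Pou4f1, 25.7 in column IgG and 0 in column negative control (limma adjusted p = 0.336). Nr2e1 is an orphan nuclear receptor of neural and retinal progenitors. Tssk3/Fam229a, with a testis-specific kinase, reached 66.3 and 18.3 with anti-Pou4f1, but 27.6 and 21.5 with IgG (limma adjusted p = 0.577), and Hist1h2ak/Hist1h2bn was described above. The remaining one was a region of Zbtb25/Zbtb1, with 128 and 50.7 in Pou4f1 and 15.4 and 62.8 in IgG (limma adjusted p = 0.275). This pair has 2 regions, and the other had 189 and 119 in Pou4f1 with 6.16 and 0 in IgG (limma adjusted p = 0.0305). Wrn/Purg also has 2 regions, of which that at 0 in both IgG libraries passed (limma adjusted p = 0.00244) and the other did not (0.0645).

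Nr2e1/Ostm1 had the lowest mean log2 Pou4f1 signal of all head-to-head promoters. Its stretch chr10:42583633-42583821, plus strand of mm10 with the cyclic AMP response element TGACGTCA in capitals, is shown beside those above.
Nr2e1/Ostm1: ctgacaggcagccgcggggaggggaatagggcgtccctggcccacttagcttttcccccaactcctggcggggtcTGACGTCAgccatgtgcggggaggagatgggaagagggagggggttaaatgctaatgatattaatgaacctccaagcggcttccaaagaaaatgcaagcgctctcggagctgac

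Head-to-head promoters had a slightly higher Pou4f1 signal than promoters of 1 coding gene. The medians were 207 and 180 in replicate 1 and 143 and 128 in replicate 2, a log2 difference of 0.20 and 0.16. The IgG libraries moved at least as far, with 6.63 and 5.27 in column IgG and 12.1 and 9.88 in column negative control, a log2 difference of 0.28 and 0.27. The mean of the class difference was 0.18 ± 0.032 (SD, n = 2) in Pou4f1 and 0.28 ± 0.0065 (SD, n = 2) in IgG. A two-sided exact permutation test over the libraries gave p = 0.333, the smallest p that 2 libraries against 2 can give. In replicate 1, 61.4% of head-to-head promoters lay above the median of the other class, and 56.9% in replicate 2.

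The class difference in Pou4f1 held its sign at regions of 800 to 1200 bp (0.22) and at a GC content of 58 to 66% (0.16). In IgG it was 0.20 ± 0.17 and 0.21 ± 0.13 there (SD, n = 2). For signal times region length it was 0.23 in Pou4f1 and 0.17 ± 0.11 in IgG (SD, n = 2). So IgG did not move further than Pou4f1 in each comparison, and its small SD did not hold. Among regions under 800 bp the Pou4f1 difference held in replicate 1, with medians of 222 and 212, but not in replicate 2, with 139 and 149. Against the 512 promoters where the coding gene faces a noncoding one, the difference was 0.07 and 0.06 in the Pou4f1 replicates, smaller than against all promoters of 1 coding gene. The median signal of those 512 was 198 in replicate 1 and 138 in replicate 2, so both kinds of divergent promoter sat above the class as a whole.

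**Figure D2:**
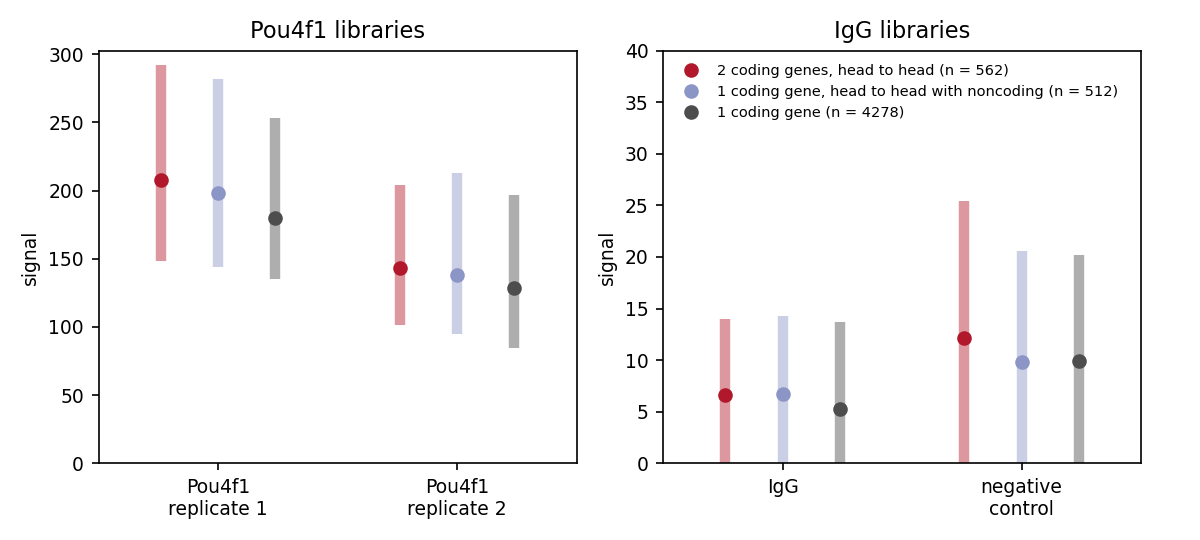
Median signal (points) and quartiles (bars) of 3 classes of promoter in the Pou4f1 libraries (left) and the IgG libraries (right, with a different vertical scale), where the class of 1 coding gene (n = 4278) includes those head to head with a noncoding start (n = 512). The head-to-head coding promoters have the highest median in each Pou4f1 library, at 207 and 143, and the bars of the classes overlap.

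The distance between the starts ranged from 0 to 987 bp with a median of 121 bp (quartiles 67 and 225). It was at most 100 bp in 240 promoters and over 400 bp in 52. The closest pairs had the least signal. In the 105 with starts at most 50 bp apart the median was 155 in replicate 1 and 117 in replicate 2. In the 135 with a gap over 50 and up to 100 bp it was 212 and 152, and in the 52 with a gap over 400 bp it was 239 and 174. The IgG medians of the closest pairs, 5.68 and 11.2, were close to those of the other gap classes (3.44 to 8.86 and 11.3 to 14.1). Of the closest pairs 63 of 105 were higher in Pou4f1 (60%), and of the widest 67.3%. Both shares are near the 63.3% of all head-to-head promoters and the 64.8% of all regions. Across the 562 regions gap and mean log2 Pou4f1 signal had a Spearman correlation of 0.197, which is a description over regions of the same libraries. The gap classes also differed in region length, with a median of 961 bp in the closest and 1152 bp in the widest.

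Most regions covered the shared stretch, and as a class they reached about equally far past the minus-strand and the plus-strand start. These sides are those of the genomic strand, so even medians would arise also where single regions lean to 1 gene. Both closest starts were covered in 500 of 562 (89.0%). Past the start of the minus-strand gene the region reached a median of 458 bp (quartiles 297 and 664), and past that of the plus-strand gene 456.5 bp (304 and 652.5). The midpoint lay on the side of the minus-strand gene in 285 and on that of the plus-strand gene in 276. It lay between the starts in 172 (30.6%), and its distance from their centre had quartiles of -139 and 136.5 bp. Promoters of 1 coding gene reached 483 bp upstream and 525 bp downstream of the closest start, and 56.0% of them reached further downstream. That class is oriented by transcription, so its sides are not comparable with those of the pairs. Head-to-head regions were a little longer, with a median of 1073 bp against 1018 bp.

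**Figure D3:**
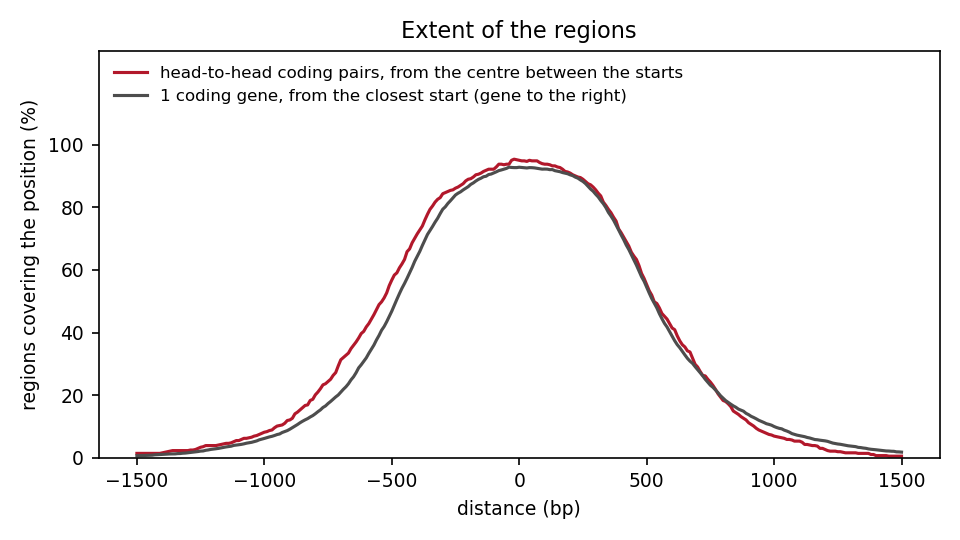
Share of regions (vertical, %) that cover each position, by distance in bp from the centre between the starts of a head-to-head pair (red) or from the closest start of a single gene pointing to the right (grey). Sides of the pairs are those of the genomic strand, and 56.8% of head-to-head regions cover 500 bp to the left and 55.3% to the right. Single genes have 46.8% and 54.5%, with sides set by transcription and so not comparable with those of the pairs.

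Seen from the annotation, genes in head-to-head coding pairs more often had a region than other coding genes. Of 2410 genes in such pairs 1196 had a region with its midpoint within 1 kb of a start (49.6%, 95% exact binomial interval 47.6 to 51.6), against 4274 of 19528 other coding genes (21.9%, 21.3 to 22.5). The intervals treat genes as independent, although the genes of a pair share their region, and cover counting error only. Of the 1232 annotated pairs 580 held a region near both starts (47.1%, 44.3 to 49.9).

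Promoters rich in G and C had more regions in both kinds of gene. With a GC content of at least 60% within 500 bp of the outermost start, 63.5% of genes in pairs and 46.3% of the others had a region. Below 60% these shares were 38.6% and 13.0%. In each of the 6 classes of GC content the genes in pairs had the larger share, with intervals that did not overlap. Whether expression of the genes goes with these shares was not tested.

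**Figure D4:**
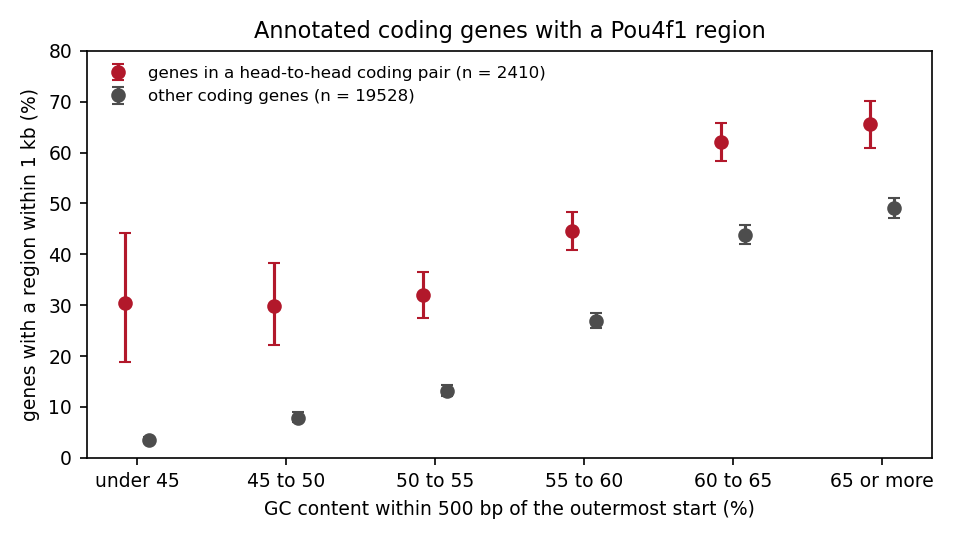
Share of annotated coding genes with a Pou4f1 region (vertical, %) by the GC content of the promoter (horizontal, %), for genes in a head-to-head coding pair (red) and other coding genes (grey), with 95% exact binomial intervals. The share of paired genes goes from 30.4% under 45% GC to 65.6% at 65% or more, and that of other genes from 3.50% to 49.1%.

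Annotated pairs with and without a region differed in their shared stretch. In windows of 300 bp about the centre between the starts, the median GC content was 64.0% in the 580 pairs with a region and 60.7% in the 652 without, and the median gap was 122.5 and 91.5 bp. The GC box GGGGCGGG was in 36.9% and 23.0% of these windows and CCAATNAG in 15.3% and 8.90%, with intervals that did not overlap (33.0 to 41.0 and 19.8 to 26.4, 12.5 to 18.5 and 6.82 to 11.3). CCGGAAGT was no more frequent where a region was present, at 11.0% (8.60 to 13.9) against 14.1% (11.5 to 17.0). The POU4 consensus was in 0 of the 580 and 0 of the 652, which allows shares of up to 0.634% and 0.564% (upper limits of the same intervals).

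Within the table, head-to-head promoters held the motifs of general promoter factors more often than promoters of 1 coding gene. The motifs were searched on both strands of the central 300 bp of each region (2 shorter head-to-head regions and 10 of the other class were searched whole), matches of different motifs may overlap, and a match is a description of the letters only. CCGGAAGT, the site of ETS factors such as GABP, was in 49 of 562 (8.72%, 95% exact binomial interval 6.52 to 11.4), against 3.83% (3.28 to 4.45) at promoters of 1 coding gene and 2.86% of all regions. CCAATNAG was in 11.9% (9.36 to 14.9), against 7.5% (6.73 to 8.33) and 6.18%. CGCATGCG of NRF1, a regulator of mitochondrial genes, was in 5.16% (3.48 to 7.33), against 2.85% (2.37 to 3.40) and 2.13%. TGACGTCA was in 4.27% (2.76 to 6.29), against 1.68% (1.32 to 2.11) and 1.49%, and GGGGCGGG in 31.1% (27.3 to 35.1), against 24.5% (23.3 to 25.9) and 17.0%. For these 5 motifs the intervals of the promoter classes did not overlap. They did overlap, for each of the 5, with those of the 512 promoters where the coding gene faces a noncoding one. There CCGGAAGT was in 5.86% (3.99 to 8.26), CCAATNAG in 8.59% (6.31 to 11.4), GGGGCGGG in 27.5% (23.7 to 31.6), and CGCATGCG and TGACGTCA each in 2.73% (upper limit 4.55).

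For AAGATGGCG of YY1 (4.27% against 2.34%, and 2.18% of all regions), TCACGTGA (2.31% against 0.958%, and 0.772%) and ACTACAATT of ZNF143 (0.534% against 0.281%, and 0.212%) the intervals overlapped. They also did for TATAAA (3.20% against 2.71%, and 7.32%) and for the octamer (0.534% against 0.912%, and 1.25%). At a GC content of 58 to 66%, a comparison chosen after the data were seen, CCGGAAGT was in 8.03% (5.45 to 11.3) of head-to-head promoters and 4.18% (3.39 to 5.09) of the others. For the remaining 4 the intervals then overlapped, with shares of 11.9% and 8.36% for CCAATNAG, 4.99% and 3.47% for CGCATGCG, 3.88% and 2.0% for TGACGTCA and 29.9% and 25.8% for GGGGCGGG.

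The motif did not mark a stronger signal in each case. Head-to-head promoters with CCAATNAG had a median of 245 in replicate 1 and 166 in replicate 2, against 206 and 140 without. Those with CCGGAAGT had 186 and 138, against 209 and 144 without.

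The POU4 consensus was in the central 300 bp of 1 of the 562 head-to-head promoters (0.178%, 95% exact binomial interval 0.0045 to 0.987), against 0.771% (0.532 to 1.08) at promoters of 1 coding gene, 15.4% at regions with no start within 1 kb and 6.15% of all regions. The median GC content of these classes was 62.0%, 63.1% and 49.0%, and at 58 to 66% the shares of the promoter classes were 0.277% and 0.311%. The region with the motif was that of Mepce/Zcwpw1, on chromosome 5 from 137785710 to 137788137. It reached 502 and 567 with anti-Pou4f1, but 7.38 and 11.5 with IgG (log2 difference 5.71, limma adjusted p = 0.00357). Over whole regions 9 of the 562 held it (1.6%), among them Lig4/Abhd13, Col4a1/Col4a2 and Ofd1/Trappc2. Only full matches to the consensus were counted, so these shares do not measure sites that depart from it. The Sncg/Mmrn2 region was not among the 9. Yet the paper places in that region a Pou4f1 site that another study had found in the Sncg promoter.

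**Figure D5:**
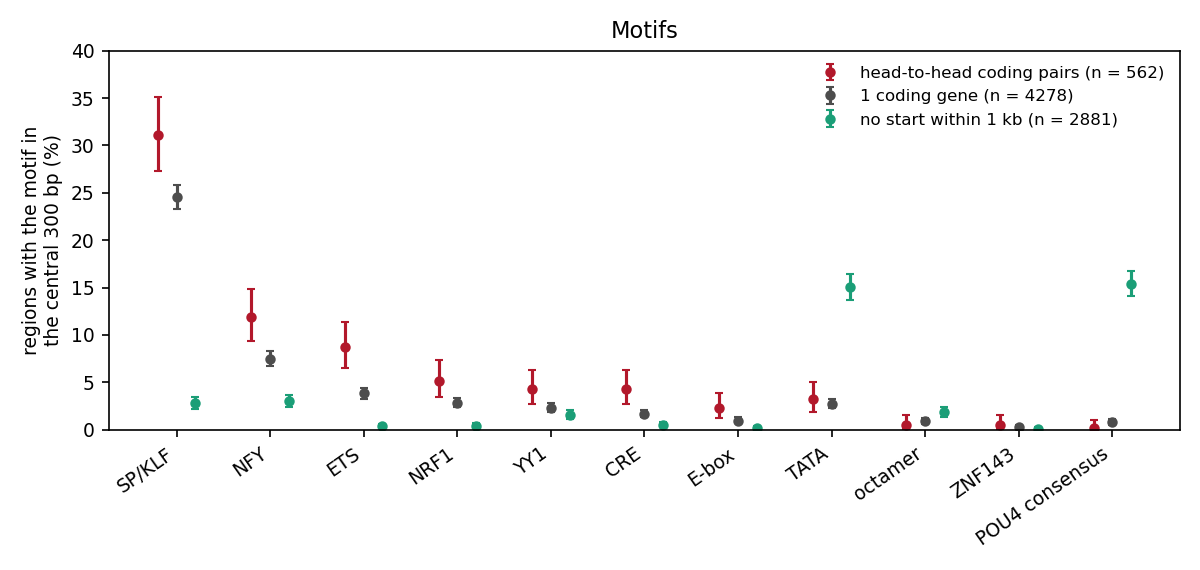
Share of regions (vertical, %) with each motif in the central 300 bp, for head-to-head coding promoters (red), promoters of 1 coding gene (grey) and regions with no start within 1 kb (green), with 95% exact binomial intervals. SP/KLF, NFY, ETS, NRF1 and CRE are highest in red, and the POU4 consensus is near 0 at both promoter classes and at 15.4% in green.

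Lists of genes by function were matched to the head-to-head promoters by symbol. Of the 12 lists DNA repair had the most, with 24 regions at 23 genes. It is also among the larger lists, with 92 annotated genes, of which 36 are in head-to-head pairs. Of its 24 regions 15 were higher in Pou4f1, where 64.8% of all regions were. Besides those already given, Ankrd49/Mre11a, with a nuclease of break repair, reached 293 and 213 with anti-Pou4f1, but 11.6 and 19.9 with IgG (limma adjusted p = 0.0109, and a log2 difference of -0.0094 with column totals as library sizes). Xrcc3/Zfyve21, with a recombination gene, reached 321 and 187 versus 13.4 and 0 (limma adjusted p = 0.0465). Lig4/Abhd13, with the ligase of end joining, reached 307 and 186 versus 0 and 14.2 (limma adjusted p = 0.0486). With a pseudocount of 0.1 neither Xrcc3/Zfyve21 nor Lig4/Abhd13 passed (limma adjusted p = 0.126 and 0.129). The median over the 24 was 214 in replicate 1 and 139 in replicate 2, close to that of all head-to-head promoters.

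DNA replication had 9 regions, of which 8 were higher, where 64.8% of all regions were. Orc4/Mbd5, with a subunit of the origin recognition complex, had 445 and 437 in Pou4f1 and no IgG signal in either library (limma adjusted p = 0.00222). Its region, on chromosome 2 from 48948804 to 48949572, lies inside Orc4 and covers neither start. Vps35/Orc6, with another subunit, reached 281 and 314 versus 7.53 and 0 (limma adjusted p = 0.0262, but 0.0963 with a pseudocount of 0.1). In both pairs every Pou4f1 library was far above the IgG libraries. Rpa1/Smyd4, with the large subunit of the protein that coats single-stranded DNA, reached 479 and 269 versus 23.3 and 13.9 (limma adjusted p = 0.0122). Abhd12/Gins1 was at 235 and 193 with both IgG libraries at 0 (limma adjusted p = 0.00222), and its region covers the start of Abhd12 but not that of Gins1. Pole3/4933430I17Rik was at 200 and 156 against 17.2 and 28.4 (limma adjusted p = 0.0192). The log2 difference of Pole3/4933430I17Rik turned to -1.04 when the libraries were scaled by column totals.

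Mitochondrial ribosome genes had 15 regions, of which 7 were higher, with medians of 203 and 115. Only 8 regions of the 4278 at a single coding gene belonged to that list (0.187%, against 2.67% of head-to-head promoters), and in the annotation 29 of its 78 genes are in head-to-head pairs. The respiratory chain and ATP synthase had 19, of which 11 were higher, and chaperones and mitochondrial import 16, of which 11 were higher. Splicing had 11 with 6 higher. The aminoacyl-tRNA synthetases Ears2, Fars2, Kars, Sars2 and Yars had 5 with 4 higher. The proteasome had 2 with 1 higher, at Psma2 and Psme2, which are named because they are so few. The list of cytosolic ribosomal proteins had 4 with 2 higher, at Rpl15, Rpl18, Rpl36al and Rps6kb1, the last being a kinase caught by its symbol. Lists were matched by gene symbol, and the shares higher stand beside 64.8% of all regions.

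Genes with symbols beginning with Ift, Bbs, Ttc or Cep, many of them of cilia and centrosomes, had 19 regions, with medians of 212 and 150. Of these regions 13 were higher, where 64.8% of all regions were. Of these 19 genes 7 are Ttc genes, named for a tetratricopeptide repeat and not all of them cilium genes. The list does not hold Hspb11, Dnaic1 or Ofd1.

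Ganglion cell genes were nearly absent. Of 80 factors and markers of ganglion cells and other retinal neurons 1 is annotated in a head-to-head coding pair, while 48 regions at promoters of a single coding gene belonged to the list. The exception was Sncg/Mmrn2, Sncg being gamma-synuclein, a marker of ganglion cells. Its region had 166 in replicate 1 and 222 in replicate 2, with 16.1 and 18.2 in IgG, so replicate 2 was the higher one, unlike at most head-to-head promoters. The log2 difference was 3.41 (SE 0.41, limma adjusted p = 0.00984), and with column totals as library sizes it turned to -0.56. The starts of Sncg and Mmrn2 are 676 bp apart, and the region, on chromosome 14 from 34374430 to 34375186, covers that of Sncg but not that of Mmrn2.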

How the data were processed

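The authors made CUT&Tag libraries from E16.5 wild-type retinas, trimmed and masked the reads and mapped them to mm10. They called regions in the relaxed mode of SEACR, with rabbit IgG as the control for the calls. The submitters' processing notes name Bowtie2 2.4.5 and SEACR. The deposited table gives a signal for 8038 regions in 4 libraries. It is not a count. Its averaging and scaling, the depth of the libraries and any pooling for the calls are missing from the sources used here, so the deposited values were compared without scaling. Of 5 samples, that of H3K9AC was left out.

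Pou4f1 (n = 2) was compared with IgG (n = 2) with the R package limma 3.58.1 (R 4.3.3) on log2(signal + 1), without covariates or a filter, with Benjamini-Hochberg adjustment over all regions. The methods call the replicates independent, without saying whether they came from separate pools of retinas, so p-values measure the spread between these libraries, which may be technical. limma was tested on simulated data of the same size, and the search for pairs and motifs on planted examples. Classes of promoter were compared by the median of each library, since regions are not replicates. Shares have 95% Clopper-Pearson intervals. Sequence was read from GRCm38.p6 and positions count from 1. Python 3.11.15, numpy 2.4.6, pandas 2.3.3, scipy 1.17.1, pysam 0.24.0 and matplotlib 3.10.9 were used.

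Named pairs were those of a list of 24 textbook pairs, the 10 largest differences past the threshold with IgG signal, the 5 highest and 5 lowest in mean log2 Pou4f1 signal, the 3 largest replicate differences each way, any pair with IgG at or above Pou4f1 in all libraries, and at most 6 each of the DNA repair, DNA replication and ganglion cell lists. Pairs with overlapping groups, with 2 regions, with the POU4 consensus or on a list of 5 or fewer were also named, after their values were seen. Some named pairs are not reported here by name, but stay in the counts. Sequences were chosen from these pairs where the gap held at least 1 of 11 motifs. The kind of region and all lists were chosen with earlier results of these data known. Alternatives were other pseudocounts, scalings, a filter, a trend of the spread, each library left out, other definitions of a pair, matched length and GC content, and other motif windows.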

Additional observations from a re-analysis of the deposited data

How the results depend on the processing

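Of the 562 head-to-head promoters, 356 were higher in Pou4f1 than in IgG, as were 5205 of all 8038 regions. With a pseudocount of 0.1 there were 234 head-to-head promoters, all among the 356, and with 10 there were 531. With column totals as library sizes the counts were 85 and 1821, and with IgG taken as 4 times shallower 107 and 2152. The column totals cover the listed regions only and are not depths. With 1 library left out the counts ran from 133 to 559 head-to-head promoters and from 2360 to 7710 regions, the lowest without Pou4f1 replicate 1 and the highest without the negative control, and a lone library is then assumed to vary like the other pair. A filter on a summed signal of 50 gave 356 and a trend of the spread 362, of which 348 were among the 356. The number of head-to-head promoters ran from 379, with only the outermost start of each gene, to 609, with overlapping starts allowed. Their log2 difference to promoters of 1 coding gene, 0.18 in Pou4f1, was 0.23 for signal times length, 0.22 at 800 to 1200 bp and 0.062 against promoters facing a noncoding gene, with 0.16 to 0.20 when a replicate was left out. The share of annotated pairs with a region was 42.5% with a limit of 500 bp in place of 47.1%. Over whole regions the POU4 consensus was in 1.6% and CCGGAAGT in 16.9%. With the outermost start only, chosen after the data were seen, 46.1% of genes in pairs had a region.

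Log2 differences changed sign with the column totals for Hspd1/Hspe1 (-0.20), Mcm4/Prkdc (-0.65), Ppat/Paics (-0.72), Col4a1/Col4a2 (-1.25), Nr2e1/Ostm1 (-0.13), Hist1h2ak/Hist1h2bn (-0.28), Tssk3/Fam229a (-3.45), Uqcr10/Zmat5 (-1.33), Pole3/4933430I17Rik (-1.04), Ankrd49/Mre11a (-0.0094) and Sncg/Mmrn2 (-0.56). Tssk3/Fam229a was at -1.45 with IgG 4 times shallower and ran from -0.39 to 1.41 with a Pou4f1 replicate left out, and Hist1h2ak/Hist1h2bn from -1.08 to 5.16 with an IgG library left out. Part of each change with the column totals is built into that scaling, and other causes were not tested. Ranbp1/Trmt2a, Atp5c1/Kin, Orc4/Mbd5 and Abhd12/Gins1, at 0 in both IgG libraries, passed under each of the 10 alternative fits, which cannot show stability where no IgG signal is left to vary. No paired analysis was possible because the IgG columns carry no replicate number. Groups of 2 libraries were too small to look for single libraries that stand apart.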
